A study of Mus musculus with 4 samples.

Results

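The 9 genes described here encode enzymes that supply NADPH or sit beside those that do: Pgls, Pgd, Tkt and Taldo1 of the pentose phosphate pathway, the isocitrate dehydrogenases Idh1, Idh2 and Idh3a, and the malic enzymes Me1 and Me2. They were chosen by name and function, and all 9 were found among the 35798 named genes of the count table. RNA came from Ly49H+ NK cells sorted from the spleens of NSG mice on D3.5 after infection with murine cytomegalovirus (MCMV), which had received a mix of wild-type NK cells carrying CD45.1 and TNFR2 KO NK cells carrying CD45.2. Each genotype had 2 libraries, each from 3 pooled spleens, and libraries with the same number came from the same pool. Both groups therefore shared host, infection and time, and differed in donor genotype, CD45 allele and sort gate. The knockout is a germline loss of Tnfrsf1b, the gene of TNFR2, and is not limited to NK cells. NSG hosts lack T, B and NK cells of their own but keep myeloid and erythroid cells, and as a strain derived from NOD they carry CD45.1, the allele of the wild-type gate. The labels give no age, sex or substrain of the donors. The study's methods give an age range in weeks for all of its mice and name the Jackson Laboratory as the source of TNFR2 KO and NSG mice and Charles River as that of C57BL/6 mice, without saying which line gave the CD45.1 donors. The labels state the shared pools, and the study describes the data as a single experiment done in duplicate. The p-values therefore measure the spread between these duplicates, not between experiments or single animals. The study's figure legend speaks of the pooled spleen sample in the singular, so whether duplicates came from separate pools cannot be told from it.

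The pentose phosphate pathway branches off glycolysis at phosphorylated glucose. Its oxidative steps reduce NADP+ to NADPH and yield a pentose sugar. Its non-oxidative steps, whose enzymes include transketolase and transaldolase, return sugars to glycolysis or make ribose for nucleotides. NADPH is also made by NADP+-dependent isocitrate dehydrogenases and malic enzymes. Dividing lymphocytes use it to build lipids and deoxynucleotides and to keep glutathione and thioredoxin reduced, and phagocytes spend it in addition on the respiratory burst.

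Expression is given as CPM, the estimated count scaled to 1000000 per library after TMM, and changes as log2FC, the log2 of TNFR2 KO divided by wild-type. Totals ran from 32713256 to 39543650 counts per library, and each of the 9 genes was among the 13822 tested. Tnfrsf1b measured 264.7 and 268.6 CPM in wild-type and 55.1 and 58.6 CPM in TNFR2 KO NK cells. The NK markers Ncr1 and Klra8, the gene of Ly49H, were abundant in every library, with Ncr1 at 258.3 and 255.5 CPM in wild-type and 511.3 and 510.5 CPM in TNFR2 KO, and Klra8 at 313.3 and 315.9 against 762.1 and 725.8 CPM. Markers of other blood cells were also present and moved with genotype. Of 28 macrophage or monocyte markers, 26 were lower and 1 was higher in TNFR2 KO (edgeR's quasi-likelihood test, adjusted p under 0.05), with a median log2FC of -2.98. Their summed level was 3390 and 3341 CPM in wild-type and 1079 and 1060 CPM in TNFR2 KO, none of them was at 0 in any library, and Ccr2, which rose, held 686.6 and 669.7 CPM of the TNFR2 KO sums. Adgre1, which encodes F4/80, dropped to 9.69 and 8.83 CPM in TNFR2 KO, where wild-type held 97.1 and 93.9 CPM. All 15 tested neutrophil or granulocyte precursor markers were lower, with summed levels of 945.4 and 966.7 against 92.9 and 89.2 CPM over the 16 listed, 1 of which was at 0 in TNFR2 KO replicate 2. Mast cell or basophil markers summed to 1279 and 1276 against 102.2 and 102.7 CPM, with 9 of 10 lower and 1 higher. Erythroid markers summed to 487.1 and 481.6 against 417.6 and 411.1 CPM, with 13 of 14 lower and 1 higher. These sums changed less than most of the markers in them, of which 10 fell by more than 1 on the log2 scale. Hba-a1, a globin gene, went from 124.7 and 131.04 to 24.7 and 24.1 CPM. Car2, named after its values were seen, was the 1 that rose (log2FC 0.98). Dendritic cell or class II markers summed to 1762 and 1799 against 154.98 and 153.9 CPM, with 6 of 10 lower and 0 higher. Of 39 NK lineage genes, 36 were higher and 2 lower. T cell markers summed to 1431 and 1448 against 1450 and 1466 CPM (5 of 8 lower, 2 higher), while only 2 of 8 B cell markers passed the low-count filter (1 lower, 1 higher). In bulk RNA, fewer cells of a type and less RNA per cell cannot be told apart, and the part of these other cells in the changes below was not tested. Of 4 Y-linked genes, all read in every library, 3 were lower and 0 higher. Ddx3y measured 43.9 and 42.9 CPM in wild-type and 31.9 and 27.2 CPM in TNFR2 KO, and whether donor or host cells gave these reads was not tested.

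In TNFR2 KO NK cells, 6 of the 9 genes fell and 2 rose at an adjusted p under 0.05 with TMM scaling, and 1 did not pass. With scaling on NK lineage genes all 9 were lower, where 85.8% of all genes tested were lower and 1.22% higher (87% together). With TMM scaling, 26.2% of all genes tested were lower and 24.2% higher by the same rule, 50.4% in either direction. DESeq2 also called 6 lower and 2 higher, against 20.7% and 18.5% of all genes (39.2% in either direction). With the study's added limit of an absolute log2FC over 1, Idh1 and Me1 were lower and 0 genes of the 9 were higher, against 11.8% lower and 1.56% higher among all genes tested (13.3% together). The same 2 passed with DESeq2, against 10.5% lower and 1.14% higher (11.6% together). The median log2FC of the 9 was -0.28, against -0.003 over all genes tested. The groups did not overlap for 8 of the 9 genes, 6 lower and 2 higher, and they did not overlap either for 37.7% (lower) and 36.4% (higher) of all genes tested. Summed over the 9 genes, expression was 1170.0 and 1187 CPM in wild-type and 1039 and 1028 CPM in TNFR2 KO.

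**Figure D1:**
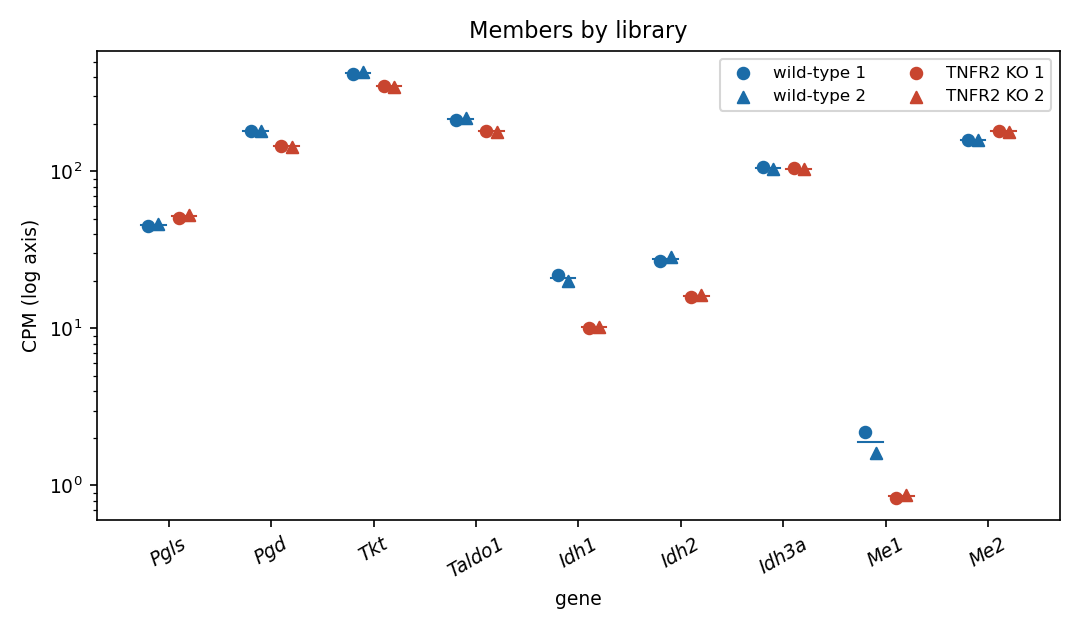
CPM of each of the 9 genes (log axis) in each library, wild-type in blue and TNFR2 KO in red, replicate 1 as circles and replicate 2 as triangles, with short lines at the group means (n = 2 each). With TMM scaling the wild-type points lie above the TNFR2 KO points for 6 genes and below them for Pgls and Me2, while those of Idh3a overlap between 103.8 and 106.2 CPM.

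Stretches next to the start sites of Idh1 and Idh2 are shown from RefSeq (GRCm38.p6, gene strand, 5′ to 3′), where 7 of the 9 genes had entries. They were chosen because these are related genes that both fell. Capitals mark, in Idh2, a match to the NF-kB motif on the opposite strand, and no capitals appear in the Idh1 stretch.
Idh1, chr1:65186501-65186729, minus strand: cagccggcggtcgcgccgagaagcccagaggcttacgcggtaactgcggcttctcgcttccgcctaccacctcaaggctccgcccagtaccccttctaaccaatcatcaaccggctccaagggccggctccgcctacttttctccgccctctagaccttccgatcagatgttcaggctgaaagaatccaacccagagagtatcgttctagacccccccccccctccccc
Idh2, chr7:80115393-80115600, minus strand: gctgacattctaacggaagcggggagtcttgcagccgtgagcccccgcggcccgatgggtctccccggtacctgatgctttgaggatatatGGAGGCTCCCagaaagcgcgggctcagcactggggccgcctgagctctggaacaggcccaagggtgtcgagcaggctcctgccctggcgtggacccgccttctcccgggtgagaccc

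In the 250 bases before each start, searched on both strands, the antioxidant response element TGACNNNGC, the site of the oxidative stress factor NRF2, was found in 0 of 10 promoters of these genes and in 10.2% of all 32851 promoters. The E-box CACGTG was found in 0 of 10 and in 6.02%, and the NF-kB motif in 1 of 10 and in 7.25%. A match of letters is not a measured site, and its absence from this window says nothing of the factor.

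Pgls, whose lactonase opens a sugar ring in the oxidative branch, rose with TMM scaling. Its position in GRCm38 (mm10) is chromosome 8, 71592176 to 71601092, plus strand. It measured 44.9 and 46.5 CPM in wild-type and 50.8 and 52.4 CPM in TNFR2 KO, so the groups were close but did not overlap. The log2FC was 0.18 (SE 0.0464, adjusted p = 0.00758, edgeR's quasi-likelihood test). With library size alone as scaling it was 0.11 and no longer passed (adjusted p = 0.0595), and scaled on NK lineage genes it was -0.56. Of its sequence cut into stretches of 31 bases, 19.5% also occurs in the overlapping neighbour Fam129c, which makes the count less certain.

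Pgd, which encodes a dehydrogenase of that branch that makes NADPH, fell. Its position is chromosome 4, 149149991 to 149166771, minus strand, which is 3.9 Mb from the targeted gene Tnfrsf1b. Expression was 179.5 and 181.4 CPM in wild-type and 145.1 and 143.6 CPM in TNFR2 KO, with duplicates within 2 CPM of each other in both groups. The log2FC was -0.32 (SE 0.0289, adjusted p = 1.46e-06, edgeR). H6pd, an oxidative branch enzyme of the endoplasmic reticulum, lies 4.73 Mb from Tnfrsf1b on the same chromosome. At 50.8 and 48.7 CPM in wild-type and 52.3 and 53.7 CPM in TNFR2 KO, its log2FC of 0.09 did not pass (adjusted p = 0.122).

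Both non-oxidative enzymes among the 9 genes fell, by nearly the same factor. Tkt, which encodes transketolase (chromosome 14, plus strand, 30548359 to 30574720), had the most reads of the 9 genes, at 415.5 and 428.9 CPM in wild-type and 349.9 and 344.6 CPM in TNFR2 KO. Its log2FC was -0.28 (SE 0.0263, adjusted p = 2.11e-06, edgeR). Taldo1, which encodes transaldolase (chromosome 7, plus strand, 141392199 to 141402968), measured 213.5 and 217.3 CPM against 181.8 and 177.7 CPM, a log2FC of -0.26 (SE 0.0284, adjusted p = 8.84e-06, edgeR). For both genes the distance between groups was several times that between duplicates. Of Taldo1's 31-base stretches, 13.8% occur in the pseudogene Gm17823, which held 0 counts in 3 libraries and about 1 count in TNFR2 KO replicate 2.

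Idh1 and Idh2 encode the NADP+-dependent isocitrate dehydrogenases of the cytosol and the mitochondrion, and both had larger falls than Pgd, Tkt and Taldo1. Idh1 (chromosome 1, minus strand, 65158616 to 65186500) measured 21.9 and 20.1 CPM in wild-type and 10.1 and 10.2 CPM in TNFR2 KO, a log2FC of -1.05 (SE 0.0843, adjusted p = 5.44e-07, edgeR). The fold-change limit lay inside the 95% interval, from -1.23 to -0.86, and without wild-type replicate 1 the value was -0.98, short of that limit. Idh2 (chromosome 7, minus strand, 80094846 to 80115392) measured 27.1 and 28.4 CPM against 15.7 and 16.3 CPM, a log2FC of -0.79 (SE 0.0648, adjusted p = 6.24e-07, edgeR). Idh2 did not pass the fold-change limit, which lay outside its 95% interval, from -0.94 to -0.65. Neither gene shares any 31-base stretch with another annotated gene. The macrophage or monocyte markers had the median of -2.98 given above, and their part in these 2 falls was not tested.

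Idh3a, the catalytic subunit of the NAD+-dependent isocitrate dehydrogenase of the TCA cycle, did not pass the test. Its position is chromosome 9, 54586334 to 54604661, plus strand. Expression was 106.2 and 103.8 CPM in wild-type and 104.5 and 104.03 CPM in TNFR2 KO. The TNFR2 KO libraries lay between the wild-type ones, and the log2FC of -0.01 had a 95% interval from -0.08 to 0.06 (adjusted p = 0.835, edgeR). The other subunits were read from the list of further suppliers. Idh3b rose slightly, from 118.7 and 124.2 to 134.2 and 131.2 CPM (log2FC 0.13, adjusted p = 0.0081), was at -0.61 with scaling on NK lineage genes, and did not pass with library size alone (0.07) or without wild-type replicate 1 (0.10). Idh3g had a log2FC of 0.07 that did not pass (adjusted p = 0.129).

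The malic enzymes moved in opposite directions with TMM scaling, though both were lower with scaling on NK lineage genes. Me1, the NADP+-dependent enzyme of the cytosol (chromosome 9, minus strand, 86581371 to 86695953), was the least abundant of the 9 genes, with 83 and 59.2 counts in wild-type and 32 and 28 counts in TNFR2 KO, or 2.19 and 1.60 against 0.827 and 0.874 CPM. Its log2FC of -1.15 carried a wide 95% interval, from -1.81 to -0.50 (SE 0.298, adjusted p = 0.00651, edgeR). Without wild-type replicate 1 it was -0.90 and did not pass (adjusted p = 0.101). As much as 36.9% of its sequence in 31-base stretches occurs in other genes, most of it in Gm7049, which held about 1 count in wild-type replicate 2 and 0 elsewhere. Me2, a mitochondrial malic enzyme that works mainly with NAD+ (chromosome 18, minus strand, 73769903 to 73815449), rose from 159.3 and 159.4 CPM to 180.7 and 178.7 CPM. Its log2FC was 0.17 (SE 0.0283, adjusted p = 0.000268, edgeR), and -0.56 with scaling on NK lineage genes. Me2 shares no 31-base stretch with another annotated gene.

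**Figure D2:**
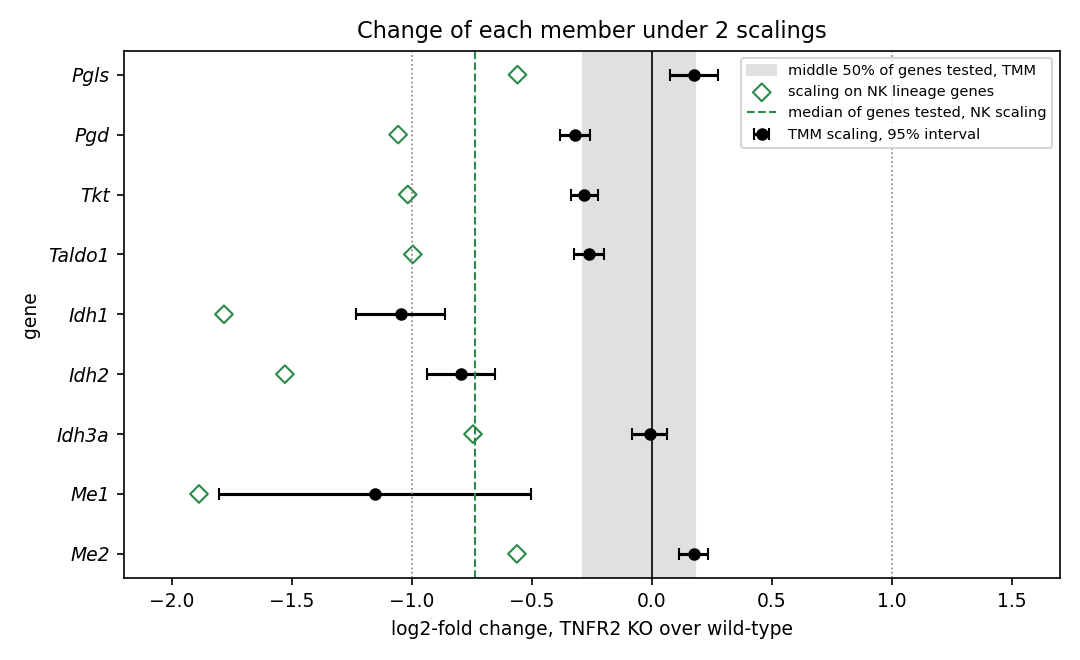
Log2-fold change of each gene, TNFR2 KO over wild-type, with TMM scaling (black points with 95% intervals from edgeR) and with scaling on 28 NK lineage genes (open diamonds). The grey band spans the middle 50% of all genes tested with TMM scaling, from -0.29 to 0.18, the dashed line marks the median of all genes with scaling on NK lineage genes, -0.74, and dotted lines mark the fold-change limit. Each diamond lies left of its point by about the same distance.

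The direction of the small changes depended on what the libraries were scaled to. Scaling on 28 NK lineage genes moved the middle of the distribution, a median log2FC of -0.74 in place of -0.003, and 85.8% of all genes tested were then lower and 1.22% higher at an adjusted p under 0.05 (87% together). Library size alone gave 4388 lower and 2419 higher genes, in place of 3624 and 3341. With scaling on NK lineage genes all 9 genes were lower, between -1.89 for Me1 and -0.56 for Pgls. A change of scaling moves every gene by nearly the same amount, so values relative to the shifted median are those of TMM scaling by construction, such as Idh1 at -1.05, Idh2 at -0.79, Pgd at -0.32, Idh3a at -0.01 and Pgls and Me2 at 0.18 each. The number past both thresholds became 5, all lower, against 25.2% lower and 0.268% higher among all genes tested (25.4% together).

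Grouped by the cofactor that each enzyme uses, the 4 NADP+-dependent members reported here (Pgd, Idh1, Idh2 and Me1) fell. Their log2FC values ran from -1.15 to -0.32, where 26.2% of all genes tested were lower. Without wild-type replicate 1, Me1 did not pass (adjusted p = 0.101). Of the 2 that work mainly with NAD+, Me2 rose (lower with scaling on NK lineage genes) and Idh3a did not pass. Among the 3 that use neither, Tkt and Taldo1 fell and Pgls rose (also lower with that scaling). The reads of the NADP+ group summed to 230.6 and 231.5 CPM in wild-type and 171.8 and 170.9 CPM in TNFR2 KO, and those of the NAD+ pair to 265.4 and 263.2 against 285.1 and 282.7 CPM. This grouping was chosen after the values had been seen and was not tested. Among related enzymes outside the members, the folate enzymes Mthfd1 (log2FC -0.36) and Aldh1l1 (-1.90) fell, while H6pd (0.09) did not pass.

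Ratios of a pair of genes within a library do not depend on scaling. With 2 libraries against 2, the exact two-sided permutation test of such a ratio cannot give a p under 0.333, and it gave that value for each of the 3 pairs. Counts of Me1 per count of Me2 were 0.0137 and 0.0101 in wild-type and 0.00458 and 0.00489 in TNFR2 KO, a log2 difference of -1.31 that exceeded the spread between duplicates (SD 0.317 and 0.0674, n = 2 each). The ratio of Pgd to Taldo1, an oxidative against a non-oxidative enzyme, was 0.841 and 0.835 against 0.798 and 0.808, a log2 difference of -0.06. Counts of Idh1 per count of Idh2 were 0.808 and 0.706 in wild-type and 0.642 and 0.626 in TNFR2 KO, a log2 difference of -0.25, of which the wild-type duplicates alone spanned a large part. In each pair the ratio was lower in both TNFR2 KO libraries than in both wild-type ones.

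**Figure D3:**
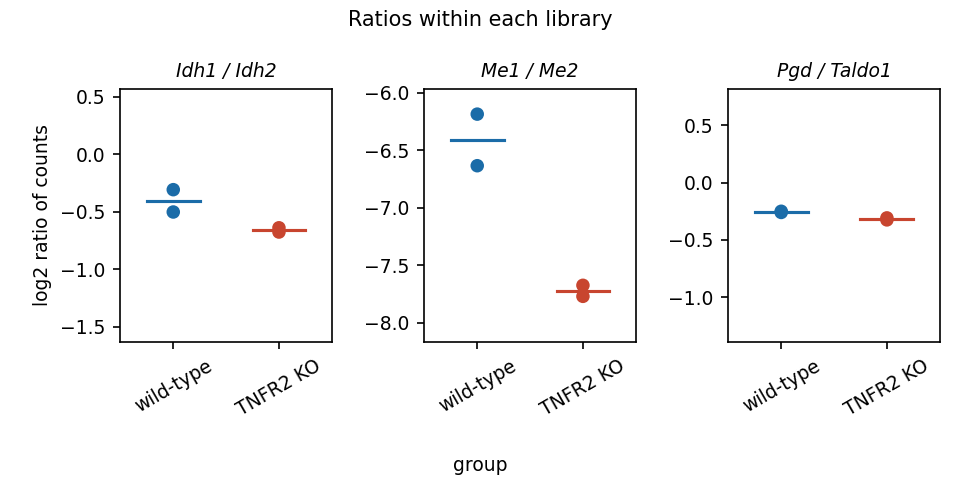
Log2 ratio of estimated counts of gene pairs within each library, wild-type in blue and TNFR2 KO in red, with lines at the means of n = 2, on axes of equal span. The gap between groups is widest for Me1 to Me2 (log2 difference -1.31) and narrowest for Pgd to Taldo1 (-0.06).

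Divided by the length of each gene's longest coding transcript in GENCODE, levels can be set in order. In wild-type the order of CPM per 1000 bases was Taldo1 at 158.2 ± 1.99, Tkt at 131 ± 2.93, Pgd at 81.4 ± 0.617, Me2 at 60.4 ± 0.0424, Pgls at 43 ± 1.06, Idh3a at 40.7 ± 0.665, Idh2 at 15.9 ± 0.557, Idh1 at 9.11 ± 0.549 and Me1 at 0.576 ± 0.126 (SD, n = 2 each). Neighbours in this order did not overlap between duplicates in either group. In TNFR2 KO, Me2 at 68.1 ± 0.533 stood above Pgd at 65.1 ± 0.478, and Pgls at 48.6 ± 1.03 lay further above Idh3a at 40.4 ± 0.119 than in wild-type (SD, n = 2 each). The other places were the same in both groups. The lengths stand in for those the authors' tool used.

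Related genes were read in lists, whose calls stand beside those of all genes tested, 26.2% lower and 24.2% higher (50.4% together). Past both thresholds the shares were 11.8% lower and 1.56% higher. These shares apply to this list and to each list that follows. Of 14 further genes of the pathway and of ribose phosphate use, 12 were tested, of which 2 fell, 1 rose and 9 did not pass, with a median log2FC of 0.07. Rpia, which makes ribose phosphate, fell from 59.2 and 59.9 to 53.3 and 54.1 CPM (log2FC -0.15, adjusted p = 0.0101), a call lost with DESeq2 (adjusted p = 0.072), without wild-type replicate 2 (0.0654) and without TNFR2 KO replicate 1 (0.0631). Prps1, which turns it into the activated form used for nucleotides, fell by 0.20 on the log2 scale (adjusted p = 0.00168, chosen after its values were seen). Rpe, the epimerase of pentose phosphates, and Dera, an aldolase of deoxyribose phosphate, had log2FC values of -0.09 and -0.07 that did not pass. Tktl1, a transketolase relative, rose by the rule but on 5 and 10 counts in wild-type and 21 and 24 in TNFR2 KO, and it lost its call with DESeq2 (adjusted p = 0.0931), with scaling on NK lineage genes (0.129), without wild-type replicate 1 (0.207) and without TNFR2 KO replicate 2 (0.145).

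Among 14 further genes of NADPH and isocitrate supply, 7 fell and 2 rose, with a median log2FC of -0.10. Nadk, the cytosolic kinase that makes NADP+ from NAD+, fell from 147.9 and 154.9 to 96.2 and 96.4 CPM (log2FC -0.65, SE 0.0344, adjusted p = 1.02e-08). Mthfd1, a folate enzyme with an NADP+-dependent step, fell by 0.36 on the log2 scale (adjusted p = 1.1e-05, chosen after its values were seen). Glud1, the mitochondrial glutamate dehydrogenase, rose by 0.08 (adjusted p = 0.0219) and was at -0.66 with scaling on NK lineage genes. Its call was lost with library size alone (adjusted p = 0.589), with the filter at 10 CPM (0.169) and without wild-type replicate 2 (0.0734). Nnt, the transhydrogenase of the inner mitochondrial membrane that makes NADPH from NADH, fell from 33.01 and 31.3 to 15.9 and 15.4 CPM, a log2FC of -1.04 (SE 0.0624, adjusted p = 3.49e-08). The C57BL/6J substrain is known for a deletion in this gene. Since neither labels nor methods name the wild-type donors' substrain, the donors' substrain and the genotype cannot be told apart for Nnt. The part of the other blood cells named above in the fall of Nnt was also not tested. Aldh1l1, another folate enzyme that makes NADPH, measured 3.72 and 5.32 CPM in wild-type and 1.09 and 1.34 CPM in TNFR2 KO, a log2FC of -1.90 (adjusted p = 2.93e-05). Nadk2, the mitochondrial NAD+ kinase, owed its call to 1 library, at 103.5 counts in wild-type replicate 2 and 9.06, 7.42 and 10.6 counts in wild-type replicate 1 and the TNFR2 KO libraries. Without wild-type replicate 2 its log2FC was 0.13 (adjusted p = 0.934).

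Of the 14 genes that carry citrate and malate between mitochondrion and cytosol or act on them, 7 fell and 3 rose, all by under 0.5 on the log2 scale, with a median of -0.08. Acly, which splits cytosolic citrate, rose by 0.09 (adjusted p = 0.024) and was at -0.65 with scaling on NK lineage genes. Its call was lost with library size alone (adjusted p = 0.447), with the filter at 10 CPM (0.122), without wild-type replicate 2 (0.151) and without TNFR2 KO replicate 2 (0.0648). Mdh2, the mitochondrial malate dehydrogenase, was at -0.14 (adjusted p = 0.00282), and Cs, citrate synthase, at -0.04, which did not pass. Past both thresholds there were 0 genes by edgeR and 0 by DESeq2, and 10 had an adjusted p under 0.05.

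**Figure D4:**
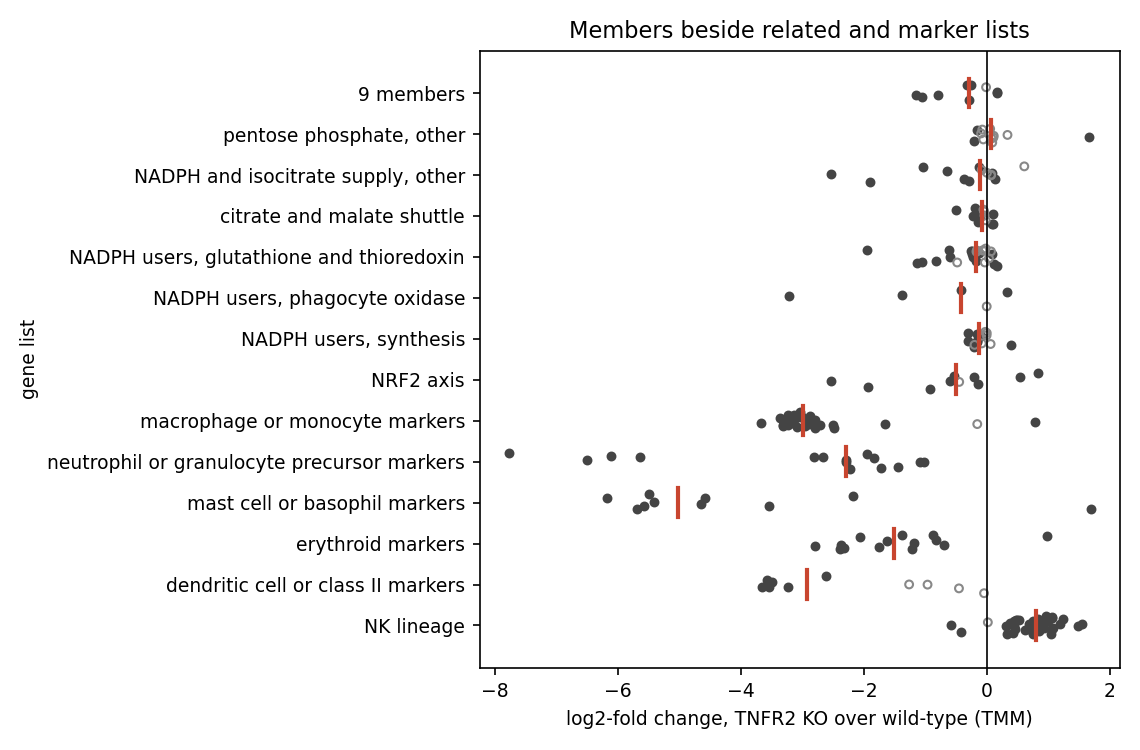
Log2-fold change of every tested gene of the 9 members, of 7 related lists and of 6 lists of cell type markers (TMM scaling), filled where the adjusted p was under 0.05 and open otherwise, with a red bar at each median. The members' median is -0.28, those of the other suppliers and of the glutathione and thioredoxin genes are -0.10 and -0.18, and those of the marker lists run from -5.03 for mast cell or basophil markers to 0.81 for NK lineage genes.

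Genes that spend NADPH were read in 3 lists with genes that act beside them, and some of these, such as Sod2 and Rac2, do not use NADPH themselves. In the glutathione and thioredoxin list, 13 of 25 genes fell and 3 rose, with a median log2FC of -0.18. Prdx1 and Txn1, among the most abundant, were at -0.24 and -0.24, and Txnrd1, the NADPH-dependent reductase of thioredoxin, was at 0.09 (adjusted p = 0.0285, and -0.65 with scaling on NK lineage genes), a call lost with DESeq2 (adjusted p = 0.053), with library size alone, with the stricter filter and without either library numbered 2. Gsr, the NADPH-dependent reductase of glutathione, was at -0.26 (adjusted p = 4.45e-05, chosen after its values were seen). Past both thresholds were Blvrb, a biliverdin reductase (-1.94), Sod2, the mitochondrial superoxide dismutase (-1.13), and the peroxiredoxin Prdx5 (-1.05). Blvrb went from 32.8 and 32.9 CPM to 8.61 and 8.52 CPM. Sod2 and Prdx5 share 26.7% and 16.9% of their 31-base stretches with other genes.

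For the phagocyte oxidase, which makes superoxide from NADPH, 3 of 5 genes fell and 1 rose. Cybb, the catalytic subunit, fell from 316.4 and 294.96 CPM to 31.5 and 34.4 CPM, a log2FC of -3.22, and the organizing subunit Ncf1, which shares 9.84% of its 31-base stretches with other genes, had a log2FC of -1.38. Cyba, the partner subunit, was at 297.5 and 301.7 CPM in wild-type and 296.4 and 303.2 CPM in TNFR2 KO. Rac2, a GTPase also used by lymphocytes, rose by 0.33 and was at -0.41 with scaling on NK lineage genes. The macrophage or monocyte markers fell alongside, with the median of -2.98 given above, and their part was not tested.

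In the list of synthesis genes, most of which use NADPH or depend on its products, 7 of 14 fell and 1 rose, with a median log2FC of -0.12. The gene that rose and the gene that fell most encode NAD+-dependent enzymes, so these counts do not measure NADPH use alone. Fasn and Rrm2, the fatty acid synthase and a ribonucleotide reductase subunit, had log2FC values of -0.02 and -0.002 that did not pass, and Rrm1 was at -0.15 (adjusted p = 0.000425). Past both thresholds there were 0 genes of this list by edgeR and 0 by DESeq2, and 8 had an adjusted p under 0.05.

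In the list around NRF2, the stress factor that is known to induce Pgd, Tkt, Taldo1, Me1 and Idh1, 7 of 10 genes fell and 2 rose, with a median log2FC of -0.49. Nfe2l2, its gene, measured 73.7 and 71.01 CPM in wild-type and 40.3 and 35.6 CPM in TNFR2 KO (log2FC -0.93, adjusted p = 3.61e-08). Keap1, its inhibitor, was at -0.14 (adjusted p = 0.00423). Hmox1, a heme oxygenase that is abundant in red-pulp macrophages, went from 198.6 and 207.5 to 35.8 and 34.2 CPM (log2FC -2.53), and Slc7a11, the cystine transporter, from 1.63 and 0.977 to 0.362 and 0.312 CPM (-1.94). Without wild-type replicate 1, Slc7a11 was at -1.51 and did not pass (adjusted p = 0.0656). The genes that rose, named after their values were seen, were Srxn1, a sulfiredoxin induced by NRF2 (0.55, adjusted p = 1.2e-05), and Bach2, a lymphocyte repressor (0.84, adjusted p = 0.00021), which were at -0.19 and 0.10 with scaling on NK lineage genes, where Bach2 did not pass (adjusted p = 0.48).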

How the data were processed

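RNA was measured in 4 libraries, 2 per genotype. The authors trimmed paired-end, stranded, poly-A selected reads with Trimmomatic 1.4, assigned them to mm10 transcripts with kallisto 0.46.1 and summed them per gene with Tximport, and they deposited estimated counts (expected counts) per gene symbol, not scaled between libraries. The transcript annotation and kallisto's strand setting are not given in the sources used here. A row without a gene name, 0.0559% to 0.0728% of the counts, was left out.

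Counts were rounded, filtered (filterByExpr), scaled (TMM) and tested with edgeR 4.0.16 in R 4.3.3 (quasi-likelihood, genotype as the only term, Benjamini-Hochberg adjustment over 13822 genes). Calls were an adjusted p under 0.05, without or with an absolute log2-fold change over 1. The biological coefficient of variation was 3.33%. The steps were tested on simulated data, in which few genes changed, in both directions alike, without a change of cell mixture. The choice of scaling was therefore not tested there. The labels state that equal numbers share a pool of spleens, so the numbers pair the samples. Deviations of same-numbered libraries correlated at 0.0243 across genes.

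The members and gene lists were chosen with earlier results of these data known. Some genes, 1 of them a member of the group, are not reported here. Besides the 9 members, the genes named are Tnfrsf1b, those past both thresholds and the 3 most abundant of each related list, and the defining markers. Others are named in connection with a member or as chosen after their values were seen. Positions and 31-base stretches come from GENCODE M21 (GRCm38), and promoters from RefSeq. Intervals on counts cover counting error only.

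Alternatives were DESeq2 1.42.0 as the test, its size factors, scaling on 28 NK lineage genes, by upper quartile or by library size, testing without a filter or from 10 CPM on average, a replicate block, and leaving out each library in turn, where the lone library of a group is assumed to vary like the other group. Plots were drawn with matplotlib 3.10.9.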

Additional observations from a re-analysis of the deposited data

How the results depend on the processing

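Between 5 and 9 members were lower at an adjusted p under 0.05 under the alternatives run. The 2 that were higher became 1 with library size alone and 0 when scaled on NK lineage genes. The 2 past both thresholds became 5 when scaled on NK lineage genes and 1 with a filter at 10 CPM, which leaves out Me1 by construction. With each library left out their number ran from 0, without wild-type replicate 1, to 2. Over all genes, the NK lineage scaling gave 11861 lower and 169 higher genes, 3477 and 37 of them past the fold-change limit as well, in place of 3624, 3341, 1627 and 215. The filter at 10 CPM tests fewer genes and gave 424 lower and 56 higher past both thresholds.

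The replicate block (paired fit) gave 3674 lower and 3414 higher genes and changed no call or direction among the 47 named genes. The NK lineage scaling treats its genes as unchanged by genotype, which was not tested. These genes read mostly higher in TNFR2 KO with TMM scaling, so it moved values down by nearly the same amount. Signs turned under it for Pgls (-0.56), Me2 (-0.56), Idh3b (-0.61), Glud1 (-0.66), Acly (-0.65), Txnrd1 (-0.65), H6pd (-0.65), Idh3g (-0.67), Srxn1 (-0.19), Cyba (-0.74) and Rac2 (-0.41). Other turns, whose cause was not tested, were near 0. Cyba was at -0.0603 by library size alone and -0.0356 with the filter at 10 CPM, and between -0.0107 and 0.0276 with each library left out. Rrm2 was at 0.00029 with DESeq2's size factors, 0.000285 with DESeq2, 0.00753 by upper quartile and 0.00405 without a filter, and between 2.07e-05 and 0.0136 with each library left out. Over the same fits Idh3a ran from -0.0177 to 0.015 and Fasn from -0.059 to 0.0284. Nadk2 ran from -3.42 to 0.13, the latter without wild-type replicate 2, whose 103.5 counts made its call. The 3 gene ratios kept the sign of their difference with each library left out. Depth limits Me1, Tktl1, Nadk2 and Slc7a11, which rest on few counts.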
